A study of Mus musculus with 2 samples.

Results

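Müller glia (MG) are the resident glia of the retina, and their largest cluster in single-cell RNA sequencing (ScRNA-seq) of whole P30 mouse retina is described here. Its members were the cells that the authors named MG and placed in their cluster 4, which comprised 2380 of 30943 cells (7.69%). Of the 2904 cells named MG, 524 lay in the authors' clusters 16 and 22 and were left out. The Ptbp1-Ctrl library came from a Chx10-Cre mouse and gave 1386 members. The Ptbp1-KO library came from a Chx10-Cre;Ptbp1lox/lox mouse and gave 994 members. Both mice were 30 days old, and both carried the Chx10-Cre transgene, which drives a Cre-GFP fusion in retinal progenitors, so that recombination is inherited by the glia and neurons that descend from them. Cre removes the promoter and the 1st exon of Ptbp1 between the loxP sites. There was 1 library per genotype, so no difference between genotypes could be tested, and genotype cannot be told apart from mouse, dissociation or library. Cells of 1 library are not replicates, and the intervals given below cover counting error only.

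Müller glia span the retina from the outer limiting membrane to the vitreous. They take up and recycle glutamate and GABA, buffer potassium and water, return retinoids to cones, and supply photoreceptors with metabolites and antioxidants. They are born from the same progenitors as retinal neurons and keep many progenitor transcription factors, which is why their conversion to neurons has been sought. The protein made from Ptbp1 binds pyrimidine-rich RNA and keeps neuronal exons out of transcripts, among them an exon of its paralog Ptbp2 whose skipping leads to decay of the Ptbp2 transcript. The comparison of Ptbp1-Ctrl and Ptbp1-KO glia addresses what these cells express when they have developed without Ptbp1.

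The members held 5011376 unique molecular identifiers (UMIs) in Ptbp1-Ctrl against 4460502 in Ptbp1-KO, and median depth was 3475 and 4351 UMIs per cell. They made up 8.44% of the Ptbp1-Ctrl library (95% interval 8.02 to 8.88) and 6.84% of the Ptbp1-KO library (6.44 to 7.27). A gene's level (CPM) is its UMIs summed over the members of a library and scaled to 1000000 UMIs in all. Differences are given as the log2 ratio of the Ptbp1-KO level to the Ptbp1-Ctrl level, with an exact 95% interval. The members of the 2 libraries also differed in general measures of their RNA. Malat1, a nuclear long noncoding RNA, made up 5.25% of UMIs in Ptbp1-Ctrl against 6.34% in Ptbp1-KO. Ribosomal protein genes made up 4.95% and 4.30%, and the median share of mitochondrial UMIs was 2.70% and 2.01%. The part of these values in the differences below was not tested. The methods describe female mice, whereas the Y-linked genes Ddx3y, Eif2s3y, Kdm5d and Uty were detected at 44.7 to 149 CPM in Ptbp1-Ctrl and 45.3 to 159 CPM in Ptbp1-KO, and Xist had 0 and 2 UMIs.

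The name given to the cluster was examined with 6 markers of Müller glia. Glul, the glutamine synthetase that detoxifies glutamate, stood at 10506 CPM in Ptbp1-Ctrl against 10651 CPM in Ptbp1-KO, and every member had a Glul UMI. Apoe, the main lipid carrier made by retinal glia, stood at 8774 and 9160 CPM. Rlbp1, the retinaldehyde-binding protein CRALBP, stood at 2064 and 2078 CPM, and Slc1a3, the glutamate transporter GLAST, at 1521 and 1712 CPM. The water channel gene Aqp4 had 688 and 699 CPM. The glial transcription factor gene Sox9 had 649 and 529 CPM. Each of these 6 genes was at least 4 times as high as in rods, cones, bipolar cells (BC) and amacrine cells (AC), called the other types below, in both libraries, and the smallest of these ratios was 22-fold, for Slc1a3. The markers therefore fit the name in both genotypes. Between genotypes, the log2 ratios were 0.02 for Glul, 0.01 for Rlbp1, 0.02 for Aqp4, 0.06 for Apoe, 0.17 for Slc1a3 (0.12 to 0.22) and −0.30 for Sox9 (−0.37 to −0.22), none of them past 1.5-fold.

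**Figure D1:**
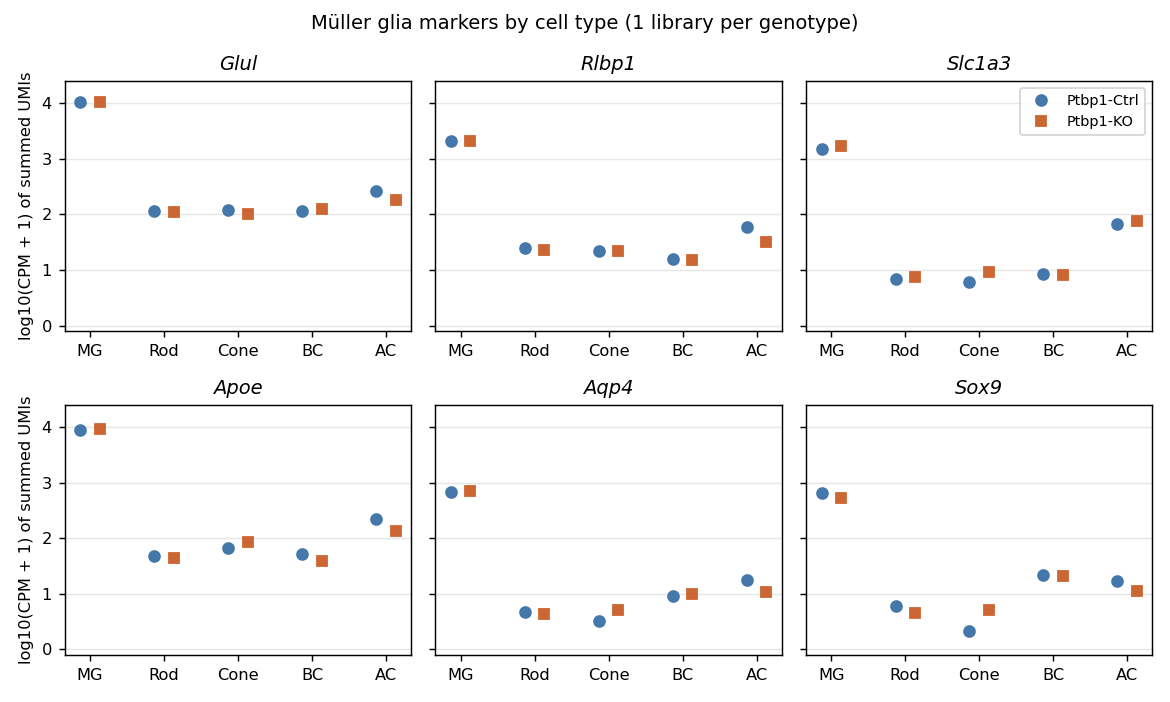
Level of 6 Müller glia markers in the members (MG) and in rods, cones, BC and AC, as log10(CPM + 1) of UMIs summed over the cells of each library; circles are Ptbp1-Ctrl and squares Ptbp1-KO. In each panel both MG points lie above those of every other type, and the 2 genotypes lie close together, with Sox9 at 649 and 529 CPM.

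RNA of other cell types in these glia was measured with marker lists. All 8 rod markers were detected, summing to 8139 CPM in Ptbp1-Ctrl against 6680 CPM in Ptbp1-KO. Each stood at 13.9 to 16.3% of its level in rods in Ptbp1-Ctrl and at 11.7 to 15.7% in Ptbp1-KO, so that the 8 genes kept nearly 1 proportion to rods. Their median log2 ratio was −0.32. Other lists were low. Cone markers summed to 87.6 and 76.7 CPM, BC markers to 218 and 208 CPM, AC markers to 19.4 and 32.7 CPM, ganglion cell markers to 46.1 and 57.4 CPM and horizontal cell markers to 4.19 and 9.86 CPM. Among non-neuronal cells, the astrocyte list summed to 40.7 and 48.4 CPM with its defining gene Pax2 at 0 in both libraries. The microglia list summed to 33.3 and 39.5 CPM, with C1qb and Tmem119 at 0 in both and most of it from P2ry12 (28.3 and 31.4 CPM). The endothelial list reached 1555 and 1558 CPM almost wholly through Flt1 and Kdr, which Müller glia also express (891 and 826 CPM, and 661 and 728 CPM). The defining endothelial genes Cldn5, Pecam1 and Cdh5 each had at most 2.47 CPM. Pericyte markers summed to 56.5 and 60.1 CPM, pigment epithelium markers to 9.58 and 11.9 CPM, and haemoglobin genes to 0 and 2.91 CPM.

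The genes that stood furthest above the other types give the profile of these cells. These ratios are a description, since the authors' clusters were drawn from the same values. Of 7575 genes with a mean of at least 20 CPM over the 2 libraries, 573 (7.56%) were at least 4 times as high as in the highest of rods, cones, BC and AC in both libraries, while 8.22% were so in Ptbp1-Ctrl and 8.26% in Ptbp1-KO. Among genes with a mean of at least 50 CPM, the 20 largest of these ratios ran from 50.2 to 79.1-fold. Cxcl16, a membrane-bound chemokine, stood at 162 and 129 CPM, against at most 2.04 CPM in the other types. Il33, a nuclear alarmin cytokine, stood at 425 and 368 CPM. Vcam1, an adhesion molecule for leukocytes, stood at 53.9 and 55.8 CPM. Tril, an accessory protein of Toll-like receptors, Anxa1, an annexin with anti-inflammatory activity, and the lysosomal protease gene Ctsc were also among the 20. The transcriptional regulators of the group were Tcf7l1, a repressor of Wnt targets (135 and 134 CPM), Gli3, which transduces Hedgehog signals (156 and 158 CPM), the Notch effector Hes1 (487 and 572 CPM), the nuclear receptors Nr1h4 and Nr2e1, and Greb1. Membrane and matrix genes completed it. Flt1, a receptor for VEGF, stood at 891 and 826 CPM, Col9a1, a collagen chain, at 528 and 512 CPM, and Fxyd1, a regulator of the sodium pump, at 1022 and 981 CPM. Mlc1, Ccn1, Bmp3, Mgst1 and Apoc1 were the others. Of these 20 genes, 2 were at least 1.5-fold higher in Ptbp1-KO, beside 8.2% of the 573 genes. They were Anxa1 (log2 1.11) and Apoc1, an apolipoprotein gene (36.1 and 65.7 CPM, log2 0.86, 0.59 to 1.14).

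The targeted gene was low in Ptbp1-KO glia. The Ptbp1-Ctrl members held 258 Ptbp1 UMIs (51.5 CPM, 45.4 to 58.2) and the Ptbp1-KO members 6 (1.35 CPM, 0.494 to 2.93), which gives a log2 ratio of −5.26 (−6.72 to −4.12), and −6.00 with each cell thinned to 1000 UMIs. A Ptbp1 UMI was found in 230 of 1386 members of Ptbp1-Ctrl (16.6%, 14.7 to 18.7) and in 4 of 994 members of Ptbp1-KO (0.402%, 0.11 to 1.03). At 1000 UMIs per cell the shares were 6.22% and 0.101%. In rods, which are mature neurons, 2.5% of Ptbp1-Ctrl cells had a UMI at a median depth of 1088 UMIs, and 0.0323% of Ptbp1-KO cells at 1288 UMIs. When thinned, these rod shares were 1.56% and 0.0324%. The share in Ptbp1-Ctrl glia was thus above that in rods at equal depth.

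Ptbp2, the neuronal paralog, was higher in Ptbp1-KO, at 200 CPM in Ptbp1-Ctrl against 314 CPM (log2 0.65, 0.53 to 0.77). Its UMIs were found in 49.2% of Ptbp1-Ctrl members and 72.2% of Ptbp1-KO members, and in 16.9% and 27.2% at 1000 UMIs per cell. The rod shares at 1000 UMIs were 13.2% and 14.9%. In the other types the log2 ratios of Ptbp2 were 0.12 in rods, −0.15 in cones, −0.03 in BC and 0.03 in AC. The paralog Ptbp3 had 38.3 and 33.2 CPM (log2 −0.21, −0.53 to 0.11). Of 6 detected PTB proteins and partners, Raver2, Matr3 and Hnrnpl, which act with PTB proteins in splicing, lay between −0.06 and 0.16. Of 7 genes with exons known to be repressed by Ptbp1, 2 were higher past 1.5-fold and 0 lower. Over all genes these shares were 2.27% and 1.45%. The 2 were Ptbp2 and Gabbr1, a GABA-B receptor subunit (53.1 and 80.0 CPM, log2 0.59, 0.36 to 0.83). Gabbr1 was within 1.5-fold with TMM scaling (0.58) and stood at 0.99 in thinned cells. Dlg4 (−0.17), Flna (−0.21) and Src (0.17) were not past 1.5-fold, and the list median was −0.03. Gene totals from 3′ reads do not show which exons were included.

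Across all genes, the profiles of the 2 libraries lay close together. Of the 7575 genes, 172 (2.27%) were at least 1.5-fold higher in Ptbp1-KO and 110 (1.45%) at least 1.5-fold lower, which together made up 3.72%. The median log2 ratio was −0.01, with the 5th and 95th percentiles at −0.40 and 0.42. Among the 573 genes that stood above the other types, 47 (8.2%) were higher and 20 (3.49%) lower, with a median of 0.06. In rods the percentages of genes past 1.5-fold were 1.79% higher and 0.418% lower, in cones 3.58% and 2.8%, in BC 0.559% and 0.519%, and in AC 1.6% and 1.46%. These types differ in depth, so the percentages were not compared.

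**Figure D2:**
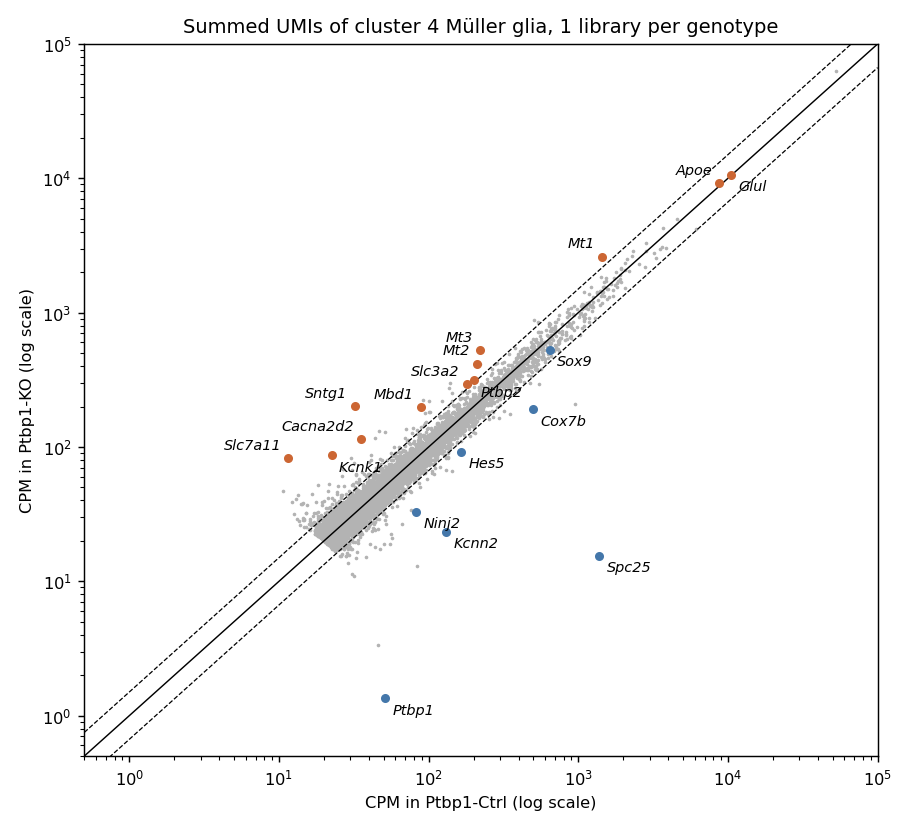
CPM of 7575 genes in the members of Ptbp1-Ctrl (horizontal, log scale) and Ptbp1-KO (vertical, log scale); the solid line marks equal levels and the dashed lines 1.5-fold. Most genes lie between the dashed lines, Spc25 and Ptbp1 lie far below them, and Slc7a11 and Sntg1 lie furthest above among the named genes.

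The largest difference lay in Spc25, which encodes a subunit of the Ndc80 kinetochore complex that attaches chromosomes to the spindle. Spc25 (chromosome 2, 69193895 to 69206194, minus strand) had 6938 UMIs (1384 CPM) in Ptbp1-Ctrl members against 69 UMIs (15.5 CPM) in those of Ptbp1-KO. Its log2 ratio was −6.48 (−6.85 to −6.14), an 89.5-fold lower level, and it ranged from −6.59 to −6.44 over the alternatives. The gene marked the glia of the control library, where its level was at most 31.2 CPM in rods, cones, BC and AC. In Ptbp1-KO those types had 0.391 to 0.828 CPM.

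At the level of single cells, a Spc25 UMI was found in 1280 of 1386 Ptbp1-Ctrl members (92.4%, 90.8 to 93.7) and in 66 of 994 Ptbp1-KO members (6.64%, 5.17 to 8.37). At 1000 UMIs per cell the shares were 68.3% and 1.31%, against 0.999% and 0.113% in rods. Of the 66 positive Ptbp1-KO cells, 63 had a single UMI, 3 had 2, and 0 of the 994 members had 3 or more, which allows a share of up to 0.302% when the limit is set at 3 counts of the total. In Ptbp1-Ctrl 992 members had 3 or more. No Ptbp1-KO member therefore reached the Ptbp1-Ctrl median of 4 Spc25 UMIs. Of the 4 Ptbp1-KO members with a Ptbp1 UMI, 2 also had a Spc25 UMI, as did 215 of 230 such members of Ptbp1-Ctrl. The 4 cells are too few for a comparison. The partners of Spc25 in the complex were nearly undetected in both libraries, with Spc24 at 0.998 and 0.673 CPM, Ndc80 at 0.599 and 0.448 CPM, and Nuf2 at 0.399 and 0 CPM.

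**Figure D3:**
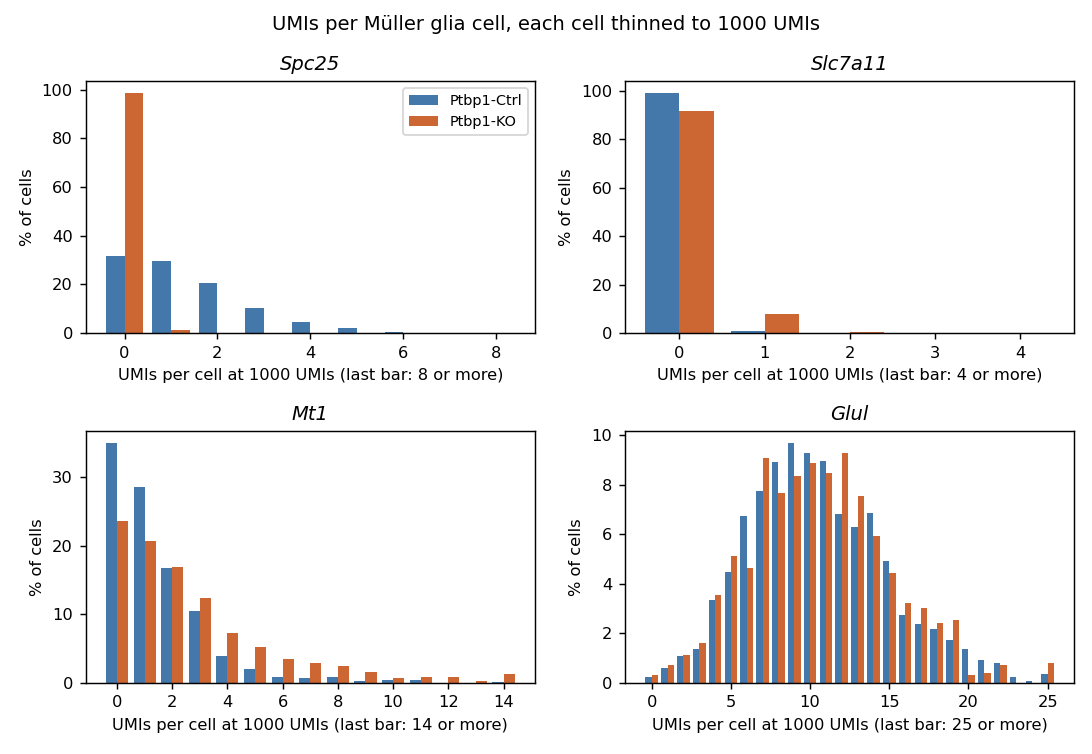
Percentage of members (vertical) by UMIs per cell (horizontal) for Spc25, Slc7a11, Mt1 and Glul, with each cell thinned to 1000 UMIs, in 1383 Ptbp1-Ctrl and 993 Ptbp1-KO cells. Spc25 spreads from 0 upwards in Ptbp1-Ctrl and is at 0 in nearly every Ptbp1-KO cell, Slc7a11 and Mt1 are shifted upwards in Ptbp1-KO, and the Glul distributions overlap.

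Genes of potassium, water and ion balance included large differences in opposite directions. Kcnn2, a small-conductance potassium channel opened by calcium, had 657 UMIs (131 CPM) in Ptbp1-Ctrl against 104 UMIs (23.3 CPM), and its log2 ratio was −2.49 (−2.80 to −2.19). Kcnk1, the background potassium channel TWIK-1, had 113 UMIs (22.5 CPM) and 386 UMIs (86.5 CPM), a log2 ratio of 1.94 (1.63 to 2.26). Kcnn2 was thus detected in 33.5% of Ptbp1-Ctrl and 8.45% of Ptbp1-KO members, and Kcnk1 in 7.07% and 30.5%. At 1000 UMIs per cell these shares were 11.3% and 2.52% for Kcnn2, and 2.1% and 7.65% for Kcnk1. In the other types the log2 ratios of Kcnn2 were −0.03 in rods, −0.92 in cones, −0.35 in BC and −0.50 in AC. Of the 11 list genes with a mean of 20 CPM, Kcnn2 and Kcnk1 were past 1.5-fold, beside 3.72% of all genes. The list median was 0.03. The genes for which Müller glia are best known in this role stayed within 1.5-fold. The inward rectifier gene Kcnj10 (Kir4.1) had 303 and 314 CPM (log2 0.05), and Aqp4 had a log2 ratio of 0.02. Dtna, a dystrobrevin of the complex that anchors both, stood at 0.03, Dmd at −0.24 and the sodium pump subunit Atp1b2 at 0.20.

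Other channel and membrane genes were among the 15 with the highest ratios at a mean of at least 50 CPM. Cacna2d2, an auxiliary subunit of voltage-gated calcium channels, had 35.5 CPM in Ptbp1-Ctrl against 114 CPM (log2 1.68, 1.43 to 1.94). Fxyd6, a regulator of the sodium pump, had 222 and 515 CPM (log2 1.21, 1.11 to 1.32), and its detection in the members was 44.1% and 78.1%. In rods, cones, BC and AC it had at most 23.6 CPM, with log2 ratios of 1.64 in rods, 2.03 in cones, 0.94 in BC and 0.40 in AC. Sntg1, a syntrophin that links membrane proteins to the dystrophin complex, had the highest ratio of the 15. It stood at 32.1 CPM (161 UMIs) and 200 CPM (893 UMIs), a log2 ratio of 2.64 (2.40 to 2.89), and was found in 7.72% and 44.7% of members. The contactins Cntn4 and Cntn3, cell adhesion molecules of the immunoglobulin family, had log2 ratios of 1.48 (46.7 and 130 CPM) and 1.24 (31.9 and 75.6 CPM). Cntn4 fell to 0.79 when all cells named MG were taken. Cntn4 was far higher in BC, at 1758 and 1762 CPM, and Sntg1 in AC, at 446 and 528 CPM. The BC marker list summed to 218 and 208 CPM in these glia, against 9059 and 9376 CPM in BC. The AC list summed to 19.4 and 32.7 CPM, against 1597 and 1938 CPM in AC. The part of BC or AC RNA in these values was not tested. Plppr4, a membrane protein of neurons, had 40.9 and 87.2 CPM (log2 1.09).

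Of 14 genes that handle amino acids and transmitters, 3 were higher past 1.5-fold and 0 lower, beside 2.27% and 1.45% of all genes. Slc7a11, the cystine and glutamate exchanger xCT, which brings in cystine for glutathione, had 58 UMIs in Ptbp1-Ctrl (11.6 CPM) against 368 UMIs in Ptbp1-KO (82.5 CPM). The gene (chromosome 3, 49892526 to 50443614, minus strand) had a log2 ratio of 2.83 (2.43 to 3.26), a 7.13-fold higher level. A UMI was found in 53 of 1386 members (3.82%) and in 257 of 994 (25.9%), and at 1000 UMIs per cell in 0.94% and 8.46%, against 0.457% and 0.68% in rods. In Ptbp1-Ctrl the thinned share in the glia was thus low, though above that in rods. Slc3a2, the heavy chain that carries Slc7a11 and related transporters to the membrane, had 180 and 293 CPM (log2 0.71, 0.58 to 0.83). Slc7a5, a further partner of Slc3a2 that imports large neutral amino acids, had 22.3 and 34.1 CPM (log2 0.61, 0.25 to 0.97), and 0.43 in thinned cells. The glutamine carrier Slc38a2 had 73.8 and 107 CPM (log2 0.53), below the 1.5-fold line. The list median was 0.14. Genes for the uptake of glutamate and GABA were within 1.5-fold, with Slc1a2 at 0.26, the GABA transporter Slc6a11 at 0.08, and the degrading enzyme Abat at −0.08.

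The metallothioneins, small cysteine-rich proteins that bind zinc and copper, were higher in Ptbp1-KO as a group. Mt1 had 1439 CPM in Ptbp1-Ctrl against 2616 CPM (log2 0.86, 0.82 to 0.90). Mt2 had 211 and 416 CPM (log2 0.98, 0.87 to 1.09). Mt3, first known from brain, had 220 and 524 CPM (log2 1.26, 1.15 to 1.36). The 3 genes lie together on chromosome 8, and all 3 were past 1.5-fold. In the other types Mt3 had log2 ratios of 0.79 in rods, 1.2 in cones, 0.76 in BC and 0.08 in AC. Mt1 had 0.48, 0.65, 0.37 and 0.14 in the same order, and Mt2 had 0.41, 0.99, 0.45 and −0.27. The values in AC were thus the nearest to 0 or below it. The levels in rods and cones were low, at most 77.3 CPM for Mt1. The 4 other members of the list with a mean of 20 CPM were zinc transporters and lay between 0.02 and 0.27, among them Slc30a1, a zinc exporter whose transcription responds to zinc (19.6 and 23.5 CPM, log2 0.27, −0.14 to 0.68). Mtf1, the zinc-sensing factor that drives metallothioneins, had 19.6 and 18.4 CPM and was under the level limit. The list median over its 7 genes was 0.27.

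Sequence upstream of the 3 metallothionein genes is shown because they lie together and were higher together. Each line gives the 250 bases before the gene's start in RefSeq (build GRCm38.p6), 5′ to 3′ on the plus strand, and capitals mark the core of the metal response element, TGCACNC or TGCGCNC on either strand. The windows are chr8:94178839-94179088 for Mt1, chr8:94172368-94172617 for Mt2 and chr8:94152357-94152606 for Mt3.
Mt1: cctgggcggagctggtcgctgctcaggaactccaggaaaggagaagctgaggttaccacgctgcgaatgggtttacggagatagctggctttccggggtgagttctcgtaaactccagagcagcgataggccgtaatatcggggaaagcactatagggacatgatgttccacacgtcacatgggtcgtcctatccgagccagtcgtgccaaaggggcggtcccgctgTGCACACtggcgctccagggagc
Mt2: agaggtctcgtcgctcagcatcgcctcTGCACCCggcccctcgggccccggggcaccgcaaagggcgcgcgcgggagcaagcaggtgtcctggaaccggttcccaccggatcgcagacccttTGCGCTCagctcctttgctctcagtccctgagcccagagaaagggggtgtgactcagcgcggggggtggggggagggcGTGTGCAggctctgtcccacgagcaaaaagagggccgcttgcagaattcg
Mt3: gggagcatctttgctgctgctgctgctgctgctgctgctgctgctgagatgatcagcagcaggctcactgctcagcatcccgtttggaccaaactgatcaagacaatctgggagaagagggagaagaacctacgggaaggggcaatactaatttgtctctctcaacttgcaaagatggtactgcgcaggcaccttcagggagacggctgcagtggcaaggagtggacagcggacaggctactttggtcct
The Mt2 window held 3 matches, 2 on the plus and 1 on the minus strand, the Mt1 window held 1 and the Mt3 window 0. Of 32851 such windows in the table, 21.4% held at least 1 match and 1.26% at least 3. These are matches of letters, not measured binding sites. GENCODE places a start at 94179082 for Mt1, inside its window, and at 94152607 for Mt3, just after its window. It places further starts downstream of each window, at 94179211 and 94179241 for Mt1, 94172664 and 94172860 for Mt2, and 94152746 for Mt3. Sequence just before those further starts was covered in part or not at all, and the numbers of matches are not comparable between the genes.

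Within single cells, Mt1 was broader in Ptbp1-KO. At 1000 UMIs per cell its median was 1 UMI in Ptbp1-Ctrl and 2 in Ptbp1-KO, the 95th percentile 5 and 9, and the highest cell 15 and 44. Mt3 was found in 19.7% and 39.8% of thinned members, and Mt2 in 16.7% and 27.6%. Variance over the mean, which is near 1 for counts that differ between cells by sampling alone, was 2.21 and 3.83 for Mt1. Its median over 4148 genes was 1.03 in both libraries, and 39 genes exceeded 1.5 in both. Among the 10 with the highest values were the rod genes Gngt1 (2.53 and 2.70), Gnat1 (2.55 and 2.36), Sag and Gnb1, together with Malat1, the mitochondrial gene mt-Atp6, Apoe (2.79 and 3.45) and Mt1. Rod RNA was thus spread unevenly over the members. Apoe ranged from 3 to 18 UMIs between the 5th and 95th percentiles in Ptbp1-Ctrl and from 2 to 19 in Ptbp1-KO, and Glul from 4 to 19 and from 4 to 18.

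Among genes of retinoid handling, Rlbp1 (0.01), the retinol dehydrogenase gene Rdh10 (−0.08) and Aldh1a1, which makes retinoic acid (102 and 76.2 CPM, log2 −0.42), were within 1.5-fold, and the list median was −0.12. Metabolic lists held no gene past 1.5-fold, beside 3.72% of all genes. None of 19 genes of glycolysis, lactate and glycogen passed it (median −0.02), with Eno1 at 0.19, Aldoa at −0.02, Aldoc at 0.18 and the lowest value at −0.53 for Hk2. None of 19 genes of cholesterol and lipid handling did (median −0.11), with Apoe at 0.06, Clu at 0.31, Dbi at −0.24 and Abca8a at 0.08. The carbonic anhydrases Car2 (0.03) and Car14 (0.10) and the 4 genes of serine and glycine synthesis (median −0.04), Gldc at 0.11 among them, also lay within it. Of 15 genes of adhesion, matrix and the outer limiting membrane none was past 1.5-fold (median −0.07), with Crb1, a polarity protein of that membrane, at −0.25, Ctnnb1 at −0.45, Cdh2 at 0.10 and Sparc at −0.28.

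The transcription factors that mark glial and progenitor identity lay close to equal levels. None of 19 was past 1.5-fold, beside 3.72% of all genes. Their values ran from −0.31 for Id3 to 0.32 for Klf9 with a median of 0.08. Nfia, a factor of gliogenesis and late progenitors, had 1052 and 1057 CPM (log2 0.01). Nfib stood at 0.08, Lhx2 at −0.09, Pax6 at 0.17 and Sox2 at 0.08. Zfp36l1, which encodes an RNA-binding protein, stood at 0.01. In the Notch pathway, which keeps progenitors and glia from neuronal differentiation, 1 of 10 genes was past 1.5-fold, beside 3.72% of all genes. Hes5, a transcriptional effector of the pathway, had 165 CPM (826 UMIs) in Ptbp1-Ctrl against 92.1 CPM (411 UMIs), a log2 ratio of −0.84 (−1.01 to −0.67). Hes5 was found in 27.3% and 18.4% of members, and in 12.7% and 7.45% of thinned cells. The related effector Hes1 stood at 0.23, the receptors Notch1 at 0.22 and Notch2 at −0.17, Nrarp at −0.36 and Hey2 at 0.07, and the list median was 0.11.

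Neurogenic and neuronal genes were mostly below the level limit, with 4 of 20 at a mean of 20 CPM. Syt1, the calcium sensor of synaptic vesicles, had 546 CPM in Ptbp1-Ctrl against 296 CPM, a log2 ratio of −0.88 (−0.98 to −0.79), and −1.18 without the tenth of cells with the highest doublet scores. Rods held it at 3220 and 3009 CPM and AC at 3456 and 3585 CPM, and the part of rod RNA in the glial value was not tested, since subtraction of rod RNA gave no value for this gene. Snap25 stood at −0.19, Map2 at −0.39 and Sox4 at 0.18, and the list median was −0.29. The proneural gene Neurog2 had 4.59 and 2.91 CPM, and the neuronal cytoskeletal genes Stmn2 and Tubb3 had 2.59 and 2.47 CPM and 3.59 and 5.60 CPM. Rgs20, a regulator of G protein signalling, was also among the 15 genes with the lowest ratios at a mean of at least 50 CPM. It had 317 and 185 CPM (log2 −0.78, −0.91 to −0.66). Its level in rods was 1290 and 1252 CPM, and its ratio moved to −3.69 when rod RNA was subtracted, so its size could not be settled.

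Genes of growth factor and cytokine signalling included 3 of 17 that were higher and 0 that were lower past 1.5-fold, beside 2.27% and 1.45% of all genes, and 1 of the 3, Igf2, was within 1.5-fold in thinned cells. The list median was 0.14. Egfr, the receptor for epidermal growth factor and related ligands, had 212 CPM (1061 UMIs) in Ptbp1-Ctrl against 398 CPM (1777 UMIs), a log2 ratio of 0.91 (0.80 to 1.02). It was found in 47.8% and 71.4% of members, and in 18.1% and 32.2% of thinned cells. In AC, the type with the next highest level, Egfr had 82.8 and 71.5 CPM. Igf2, an insulin-like growth factor, had 88.6 and 140 CPM (log2 0.66), but 0.36 in thinned cells. Igfbp5, which binds such factors, had 100 and 178 UMIs (log2 1.0, 0.64 to 1.37). The fibroblast growth factor receptors Fgfr1 (0.42) and Fgfr2 (0.25), Vegfa (0.14), Spry2 (−0.32), Tgfb2 (0.05) and Dkk3 (0.05) were within 1.5-fold.

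**Figure D4:**
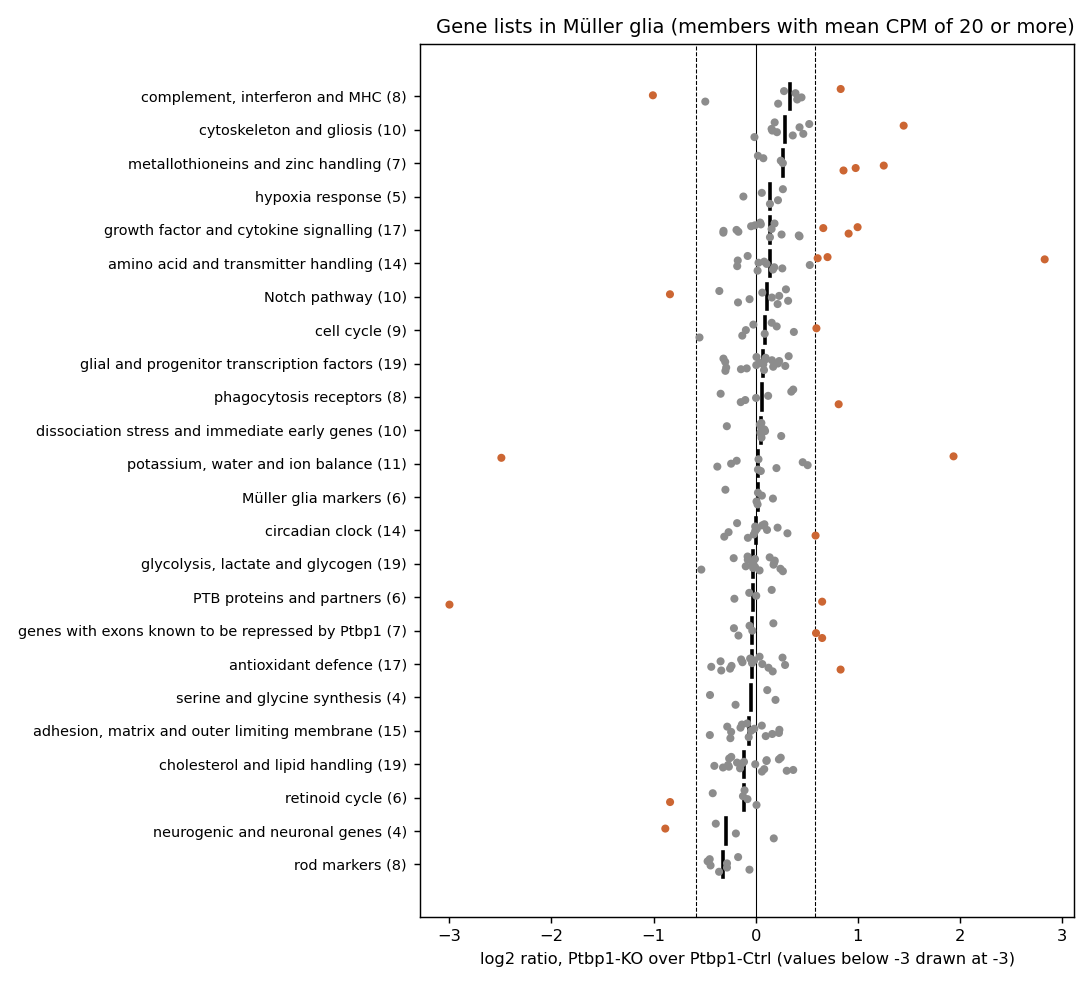
Log2 ratio, Ptbp1-KO over Ptbp1-Ctrl, of the members of each gene list with a mean of at least 20 CPM (points; number in brackets) and the list median (black bar), for lists with at least 4 such genes; points past 1.5-fold (dashed lines) are coloured. Most list medians lie near 0, and single genes such as Slc7a11, Kcnk1 and Kcnn2 lie far from the rest of their lists.

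Of 10 genes of the cytoskeleton and reactive gliosis, 1 was at least 1.5-fold higher, beside 2.27% of all genes. The list median was 0.29 beside −0.01 over all genes. The other genes of the 20 in the list, among them Nes, Lcn2, Serpina3n and Timp1, were under the level limit. Gfap, the filament gene that rises in reactive Müller glia, had 24 UMIs (4.79 CPM) in Ptbp1-Ctrl against 27 UMIs (6.05 CPM) (log2 0.34, −0.51 to 1.19), which was under the level limit. Vim stood at −0.01, Cd44 at 0.16, Stat3 at 0.16, Cebpd at 0.21, the ceruloplasmin gene Cp at 0.36 and S1pr3 at 0.47. Lgals3, the carbohydrate-binding protein galectin-3, had 30.3 and 83.0 CPM (log2 1.45, 1.18 to 1.73) and was found in 9.88% and 28.5% of members. It was the gene of the list past 1.5-fold. Anxa1, which is not in this list, had 139 and 300 CPM (log2 1.11, 0.98 to 1.24) and was found in 22.9% and 49.5% of members.

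Phagocytosis receptors held 1 gene of 8 past 1.5-fold, beside 3.72% of all genes. Mertk, a receptor that binds dead cells through Gas6 and Pros1, had 144 and 253 CPM (log2 0.81, 0.68 to 0.95), while Megf10 stood at −0.15, Itgav at 0.00, Itgb5 at −0.10, Lrp1 at 0.12 and the bridging protein gene Mfge8 at 0.35. The list median was 0.06. In complement, interferon and MHC genes, 1 of 8 was at least 1.5-fold lower, beside 1.45% of all genes. Ifit3, an interferon-induced gene, had 33.3 and 16.6 CPM (log2 −1.01, −1.42 to −0.60). The median of the list was 0.34, and B2m stood at 0.22. Of 17 antioxidant genes only Gstm1, a glutathione transferase, was past 1.5-fold, beside 3.72% of all genes. It had 102 and 182 CPM (log2 0.83, 0.67 to 1.0), and the list median was −0.03. Prdx6 (−0.01), Prdx1 (−0.34), Gpx4 (−0.34) and Gclm, which makes glutathione precursors (0.29), were within 1.5-fold.

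Signs of dissociation stress were alike. None of 10 stress and immediate early genes was past 1.5-fold (median 0.06), with Fos at 0.06, Jun at 0.05, Egr1 at 0.09, Jund at 0.09, Junb at 0.05 and Ier2 at 0.06. Of 14 circadian genes 1 was past 1.5-fold, beside 3.72% of all genes. This was Per1, with 43.1 and 64.8 CPM (log2 0.59, 0.33 to 0.85). Its ratio was 0.54 when all cells named MG were taken and 1.05 in thinned cells. The list median was 0.00, and Dbp (0.01), Nr1d1 (0.00) and Hlf (0.00) stood at equal levels. Fkbp5, a co-chaperone whose gene responds to glucocorticoids, had 51.5 and 129 CPM (log2 1.32, 1.11 to 1.54). The 5 hypoxia response genes lay within 1.5-fold (median 0.14), with Slc2a1 at 0.27. Among 9 cell cycle genes (median 0.09), Cdkn1a, an inhibitor of cyclin-dependent kinases, had 21.4 and 32.3 CPM (log2 0.60, 0.23 to 0.97). Its ratio was 0.57 with rod RNA subtracted, which is within 1.5-fold, and 1.04 in thinned cells. Ccnd1 had 44.3 and 30.3 CPM (log2 −0.55) and Ccnd3, the more abundant cyclin D, −0.13. The proliferation markers Mki67 and Mcm2 had at most 3.81 CPM. Among single members of the other lists, Thy1 of the ganglion cell list had 15.8 and 26.9 CPM (log2 0.77, and 0.54 thinned). The noncoding nuclear RNA Meg3 had 101 and 183 CPM (log2 0.86, 0.70 to 1.02), while Malat1 stood at 0.27 and Neat1 at −0.55.

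Further genes were named for their size alone. Mbd1, a methyl-CpG-binding protein, had 88.4 and 197 CPM (log2 1.16, 0.99 to 1.32), with at most 4.55% of its Ptbp1-KO UMIs in 1 cell. Dach2, a dachshund family transcription factor, had 101 and 221 CPM (log2 1.13, 0.97 to 1.29). The long noncoding RNA Gm30835, which stood at least 35.4-fold above the other types, had 43.5 and 116 CPM (log2 1.42, 1.19 to 1.65). On the lower side, Ninj2, a cell adhesion protein, had 82.8 and 33.0 CPM (log2 −1.33, −1.61 to −1.05). Dio3os, a noncoding RNA transcribed opposite to Dio3, had 75.8 and 34.1 CPM (log2 −1.15, −1.43 to −0.88), a value that depends on counting by strand. Atp6v0e, a subunit of the vacuolar proton pump, had 130 and 67.9 CPM (log2 −0.93, −1.13 to −0.73), whereas in rods, cones, BC and AC its ratios ran from −0.18 to −0.04. Rras, a small GTPase, had 87.8 and 50.4 CPM (log2 −0.80), but −0.53 in thinned cells.

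**Figure D5:**
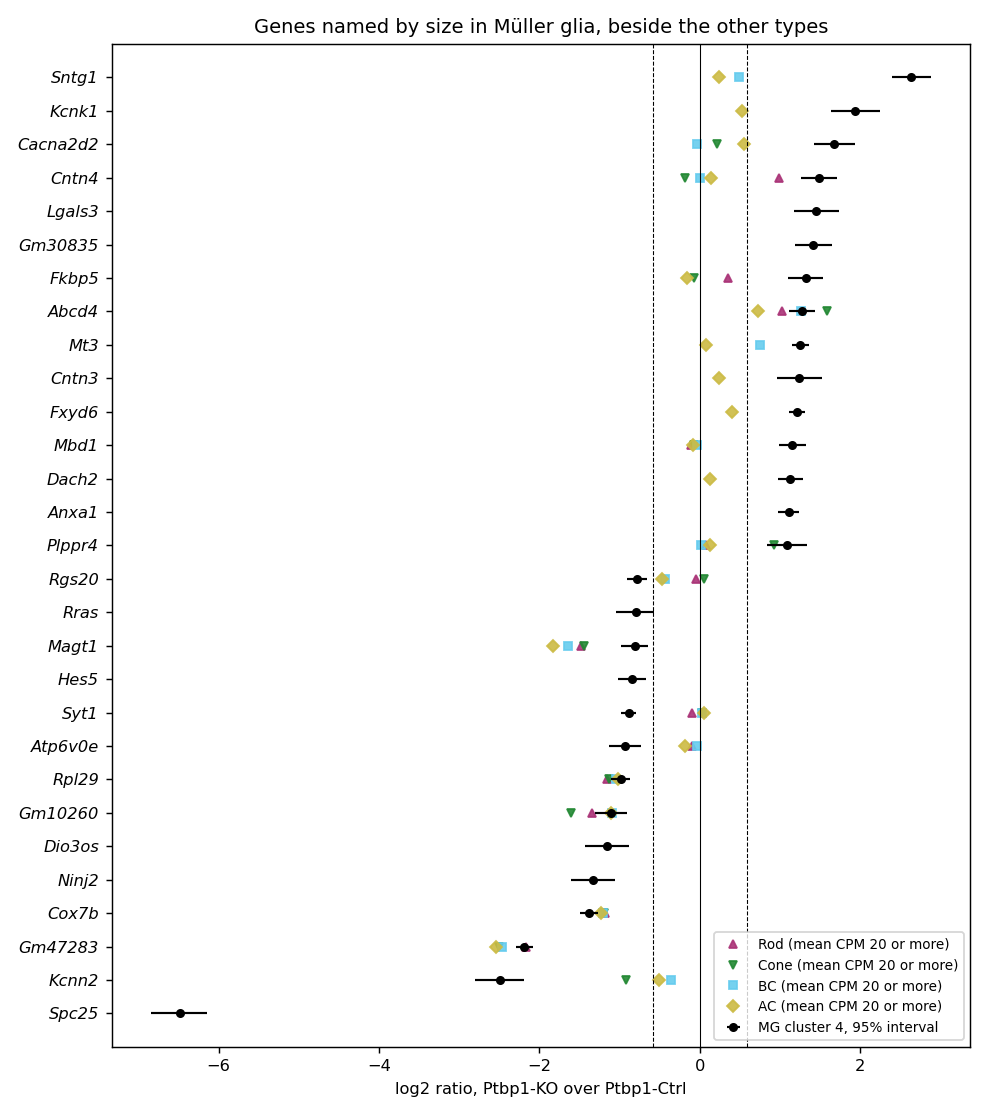
Log2 ratio, Ptbp1-KO over Ptbp1-Ctrl, of reported genes with the highest and lowest ratios among those with a mean of at least 50 CPM in the members (black, with exact 95% counting intervals), beside the ratio in each other type where the gene has a mean of at least 20 CPM there (coloured). Spc25 lies at −6.48, and Abcd4, Gm47283, Cox7b, Rpl29, Gm10260 and Magt1 lie past the dashed 1.5-fold line in every type shown.

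Some of these genes were past 1.5-fold in the same direction in rods, cones, BC and AC too, by sizes that varied between types and were not tested against each other. Abcd4, a lysosomal transporter for cobalamin, had 92.2 and 224 CPM in these glia (log2 1.28, 1.12 to 1.44), and 1.03 in rods, 1.58 in cones, 1.26 in BC and 0.72 in AC. Gm47283, a predicted gene on the Y chromosome whose repeats could share reads, had 956 and 210 CPM (log2 −2.19), and from −2.53 to −2.16 in the other types. Cox7b, a subunit of cytochrome c oxidase, had 498 and 191 CPM (log2 −1.38), and from −1.23 to −1.18 elsewhere. Its neighbour on the X chromosome is Magt1, a magnesium transporter gene, which spans 105968084 to 106011906 where Cox7b spans 106015700 to 106022450. Magt1 had 165 and 93.9 CPM (log2 −0.81), and from −1.83 to −1.44 elsewhere. The ribosomal protein gene Rpl29 had 350 and 177 CPM (log2 −0.98) and the predicted gene Gm10260 142 and 66.1 CPM (log2 −1.11). Rpl29 has near-identical copies in the genome among which counting could split its reads, so its values are uncertain. The other types come from the same 2 libraries and are not independent checks.

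Gene span went along with the ratios to a small extent. Of 613 genes spanning over 200 kb, 6.85% were at least 1.5-fold higher in Ptbp1-KO and 1.79% lower, with a median log2 ratio of 0.02. Of 1498 genes under 10 kb, 2.40% were higher and 1.80% lower, with a median of −0.05. In rods, where the level limit was applied to rod levels, the 398 genes over 200 kb and the 1341 under 10 kb gave medians of 0.10 and −0.07. In AC 771 and 1501 genes gave 0.00 and −0.01. Of these long and short genes, 5.28% and 2.09% were at least 1.5-fold higher in rods, and 1.17% and 2.40% in AC. The same shares were 4.69% and 3.78% in cones, and 0.739% and 0.990% in BC. This split was chosen after the values were seen, and its part in the named differences was not tested.

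The cells named MG outside cluster 4 differed in quality. The 245 Ptbp1-Ctrl and 136 Ptbp1-KO cells of cluster 16 had median depths of 1314 and 1715 UMIs, Glul at 2177 and 2145 CPM, and rod markers at 33.0% and 27.0% of their level in rods. The 89 and 54 cells of cluster 22 had median depths of 6076 and 7127 UMIs, Glul at 6205 and 5725 CPM, and median doublet scores of 0.285 and 0.255. The members of cluster 4 had median scores of 0.0178 and 0.0169.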

How the data were processed

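Dissociated retina was profiled with 10x Genomics 3′ version 3.1 chemistry, giving 1 library per genotype. The submitters' processing notes name Cell Ranger 7.0.1, Seurat 4 and mm10. The gene annotation, intronic counting and doublet removal were not given in the sources used here. The authors deposited raw UMI counts of 25778 genes in 30943 cells, with no normalization, and for each cell a sample, cluster, cell type and percent of mitochondrial UMIs. The authors' filter (200 to 5000 genes, 700 to 10000 UMIs, under 20% mitochondrial) was met by all 30943 cells. A further 2 columns of per-cell values were not used. Groups were taken from the genotype labels. The libraries shared 63 barcodes, 1 of them among the members of both.

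UMIs were summed per library and type and scaled to CPM, with exact Poisson intervals. Log2 ratios had exact conditional binomial intervals, and shares of cells Clopper-Pearson intervals, all at 95%. With 1 library per genotype no test was run. Genes needed a mean of 20 CPM, and 1.5-fold was a rule of size, not a call of change. Doublets were kept. Scrublet (scanpy 1.11.5) called 2.19% and 2.04% of cells, and 62 and 50 members. Genes were named by rule, namely Ptbp1, Ptbp2 and markers, list members past 1.5-fold with up to 6 abundant others, the 15 highest and 15 lowest ratios and 20 largest type ratios at a mean of 50 CPM, the 10 most variable, and sex-linked genes. List genes under 20 CPM and a few further list members were given as context. Some list members and genes met by the rule are not reported here. The members and the 38 lists were chosen with earlier results of these data known. Gene positions were matched for 7524 of 7575 genes (GENCODE vM21), and upstream sequences are from RefSeq. Scripts were tested on simulated data. Alternatives were TMM (edgeR 4.0.16) and median-of-ratios scaling, other level limits, thinning to 1000 UMIs, mean CPM over cells, all cells named MG, leaving out the 10% highest doublet scores, and subtraction of rod RNA.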

Additional observations from a re-analysis of the deposited data

Results flagged for a closer look

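Cdkn1a had log2 ratios, Ptbp1-KO over Ptbp1-Ctrl, of opposite sign in 2 cell types of the same libraries. The ratio was 0.60 (0.23 to 0.97) in the Müller glia of cluster 4, with 21.4 and 32.3 CPM, and −1.26 (−2.39 to −0.15) in AC. The AC levels, 8.69 and 3.63 CPM from 17 and 14 UMIs, lay under the limit of 20 CPM used for the glia. The difference between the types was not tested, and each type had 1 library per genotype.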

How the results depend on the processing

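The number of genes past 1.5-fold depended on depth and on the level limit. With each cell thinned to 1000 UMIs, 410 genes were higher and 342 lower. At a mean of 50 CPM, where fewer genes are examined, 68 were higher and 38 lower. With no CPM limit, at 20 UMIs over both libraries, 1031 were higher and 619 lower. Thinning also moved Ptbp2 to a log2 ratio of 0.78 and the metallothionein and zinc list to a median of 0.79. Subtraction of rod RNA moved the glycolysis median to 0.13 and the neurogenic and neuronal median to −0.44, and with no CPM limit the latter was −0.073 and the carbonic anhydrase median −0.11. The cause was not tested. The other 225 alternative values of main results moved less than their limits, as did 354 of the 377 for named genes and the median of all genes. Among the named genes past 1.5-fold none turned to the opposite direction, and other genes were not followed across alternatives. TMM and median-of-ratios scaling shifted every ratio by −0.01 and 0.01. Depth limits genes of few UMIs, for which intervals are wide, and no library can be left out because there was 1 per genotype. No paired analysis was possible because each genotype had 1 library.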

Other observations

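Further genes that stood at least 4 times above rods, cones, BC and AC in both libraries were picked after their values were seen, and are given as values only. Folh1, a glutamate carboxypeptidase, had 542 CPM in Ptbp1-Ctrl against 854 CPM in Ptbp1-KO (log2 0.66, 0.58 to 0.73). Gpc3, a glypican of the cell surface, had 123 and 221 CPM (log2 0.85, 0.70 to 1.0). Aass, an enzyme of lysine breakdown, had 14.4 and 38.3 CPM (log2 1.42, 1.01 to 1.83). Fam107a had 26.9 and 68.8 CPM (log2 1.35, 1.06 to 1.66) and the transcription factor gene Zic1 32.5 and 62.1 CPM (log2 0.93, 0.65 to 1.22). In the other direction, Rarres2, which encodes the secreted protein chemerin, had 47.1 and 17.5 CPM (log2 −1.43, −1.82 to −1.05).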
